A study of Mus musculus with 7 samples.

Results

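Id proteins and E proteins are partners within the helix-loop-helix (HLH) family of transcriptional regulators. The genes described here are the 4 Id inhibitors, Id1, Id2, Id3 and Id4, and the 3 E proteins, Tcf3, Tcf4 and Tcf12. They were chosen by name, as every row of the 7 transcript tables that carries one of these symbols, and TPM (a transcript's share of a library, scaled by its length) was summed over the rows of a gene. The choice gave 7 of the 16143 genes listed and 61 of the 55404 transcripts. The cells came from retinas of ICR mice, an outbred stock, taken at embryonic day 17.5. The explants received by electroporation a plasmid encoding EGFP along with either a control plasmid or one expressing shKmt2f, a short hairpin RNA against Setd1a (Kmt2f is an alias), a methyltransferase for histone H3 lysine 4. After 2 days in culture the EGFP-positive cells were collected by flow sorting, so both groups hold only cells that had taken up plasmid. There were 3 control and 4 shKmt2f libraries, and since no source states that they represent separate embryos or cultures, a p-value here is set against library-to-library spread alone, which may be technical.

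E proteins bind DNA at E-box motifs through a basic HLH (bHLH) domain, as pairs among themselves or with tissue-specific bHLH factors such as the proneural factors. Id proteins have the HLH dimerisation domain but no basic region, so a pair that includes an Id protein does not bind DNA. Id genes are well-known targets of BMP signalling, and in the developing retina they are known from progenitors, in which the balance between Id proteins, E proteins and proneural factors is thought to bear on when a cell differentiates.

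The shared part of the Id family is shown because it is what lets all 4 act on the same E proteins. The 4 stretches below are the 123-base, in-frame coding window most alike between Id1 and the other Id genes, and they encode the HLH domain. Capitals mark the 70 bases identical in all 4 genes, and each stretch lies within 1 coding exon (GENCODE annotation of GRCm38, mRNA strand, 5′ to 3′). Id1 is at chr2:152736518-152736640 (plus strand), Id2 at chr12:25095780-25095902 (minus strand), Id3 at chr4:136144002-136144124 (plus strand) and Id4 at chr13:48261693-48261815 (plus strand).
Id1: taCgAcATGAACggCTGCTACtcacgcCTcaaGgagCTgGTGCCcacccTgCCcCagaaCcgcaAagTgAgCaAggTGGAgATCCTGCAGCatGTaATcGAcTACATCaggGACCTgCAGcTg
Id2: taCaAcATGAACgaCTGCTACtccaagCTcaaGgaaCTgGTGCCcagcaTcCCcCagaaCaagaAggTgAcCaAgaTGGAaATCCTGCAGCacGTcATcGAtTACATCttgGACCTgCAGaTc
Id3: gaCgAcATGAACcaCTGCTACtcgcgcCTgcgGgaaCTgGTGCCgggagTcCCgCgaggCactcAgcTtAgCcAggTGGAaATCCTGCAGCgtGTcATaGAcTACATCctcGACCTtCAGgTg
Id4: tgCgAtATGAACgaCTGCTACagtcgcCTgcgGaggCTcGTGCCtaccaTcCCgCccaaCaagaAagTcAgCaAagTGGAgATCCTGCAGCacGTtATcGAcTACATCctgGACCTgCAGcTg
Between pairs, identity over this stretch was highest for Id1 and Id2, at 80.5%, and lowest for the pairs that include Id3, at 70.7% each.

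The bHLH domain of Tcf3 is encoded by a choice between 2 exons, E12 and E47, which give the proteins of those names. Both exons are shown because the ratio of the 2 forms is measured below. E12 lies at chr10:80412827-80413062 and E47 at chr10:80410398-80410624, both on the minus strand of GRCm38. Capitals mark bases that differ from the other exon, or have no counterpart in it, in a global alignment.
E12: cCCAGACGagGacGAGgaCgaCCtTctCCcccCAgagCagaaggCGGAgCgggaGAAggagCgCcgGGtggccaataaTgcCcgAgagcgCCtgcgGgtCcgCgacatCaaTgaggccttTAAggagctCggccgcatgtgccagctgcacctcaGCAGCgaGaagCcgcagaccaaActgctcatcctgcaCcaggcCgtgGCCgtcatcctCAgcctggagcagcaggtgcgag
E47: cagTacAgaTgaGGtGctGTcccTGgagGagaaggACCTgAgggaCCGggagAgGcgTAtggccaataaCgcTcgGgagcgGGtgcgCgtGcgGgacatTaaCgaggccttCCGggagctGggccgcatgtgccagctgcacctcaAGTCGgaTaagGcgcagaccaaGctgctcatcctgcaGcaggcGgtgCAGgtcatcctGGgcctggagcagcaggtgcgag
Of 227 aligned positions, 175 were identical (77.1%).

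Among the 7 genes, Id1 and Id2 were lower and Tcf12 was higher in shKmt2f libraries, while Id3, Id4, Tcf3 and Tcf4 did not pass the test (limma on log2(TPM + 1), Benjamini-Hochberg adjusted over all 12456 genes tested, threshold 0.05). All 7 passed the filter of at least 1 TPM in at least 3 libraries. The 3 calls among 7 stand against 14.1% of all genes tested that were called, 10.4% higher and 3.69% lower. The ranges of the groups did not overlap for Id1, Id2 and Tcf12, against 28.9% of all genes tested (19.2% higher, 9.67% lower). Fold changes are shKmt2f minus control on the log2(TPM + 1) scale, where the median of all tested genes was 0.09.

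The labels were checked on the targeted gene. The longest Setd1a transcript stood at 0.767, 0.959 and 0.764 TPM in the control libraries and at 0.407, 0.328, 0.374 and 0.432 TPM in the shKmt2f libraries, or 46.4% of control (exact permutation test, two-sided, p = 0.0286, the smallest that the 35 splits of these libraries allow). Summed over its 4 listed transcripts, Setd1a had 11.7, 7.83 and 7.36 TPM against 8.26, 7.997, 4.501 and 6.99 TPM; these ranges overlapped at 77.5% of control, and the sum did not pass (limma adjusted p = 0.365; exact permutation p = 0.4). Libraries held 11840 to 12318 genes at 1 TPM or more. Progenitor markers (14 of 14 listed) summed to 1446 to 1701 TPM in control and 1146 to 1274 TPM in shKmt2f libraries. Of the 14, 3 were called lower and 0 higher: Hes5, Ccnd1 and Dapl1, which carried most of the drop in the sum. Rax, Pax6, Six6, Sox2, Hes1 and Nes were not called, with log2 fold changes from -0.05 to 0.46. Mitosis genes (13 of 13) summed to 1313 to 1498 and 540 to 826 TPM, with 9 called lower. Photoreceptor precursor markers (8 of 8) summed to 439 to 549 and 683 to 911 TPM, with Otx2, Crx and Prdm1 called higher, while Nrl, Nr2e3 and Rxrg, with fold changes of -0.04, -0.18 and -0.04, were not called. Ganglion cell markers (10 of 10) summed to 18.1 to 27.2 and 44.0 to 50.6 TPM, and the 6 that could be tested were all called higher.

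**Figure D1:**
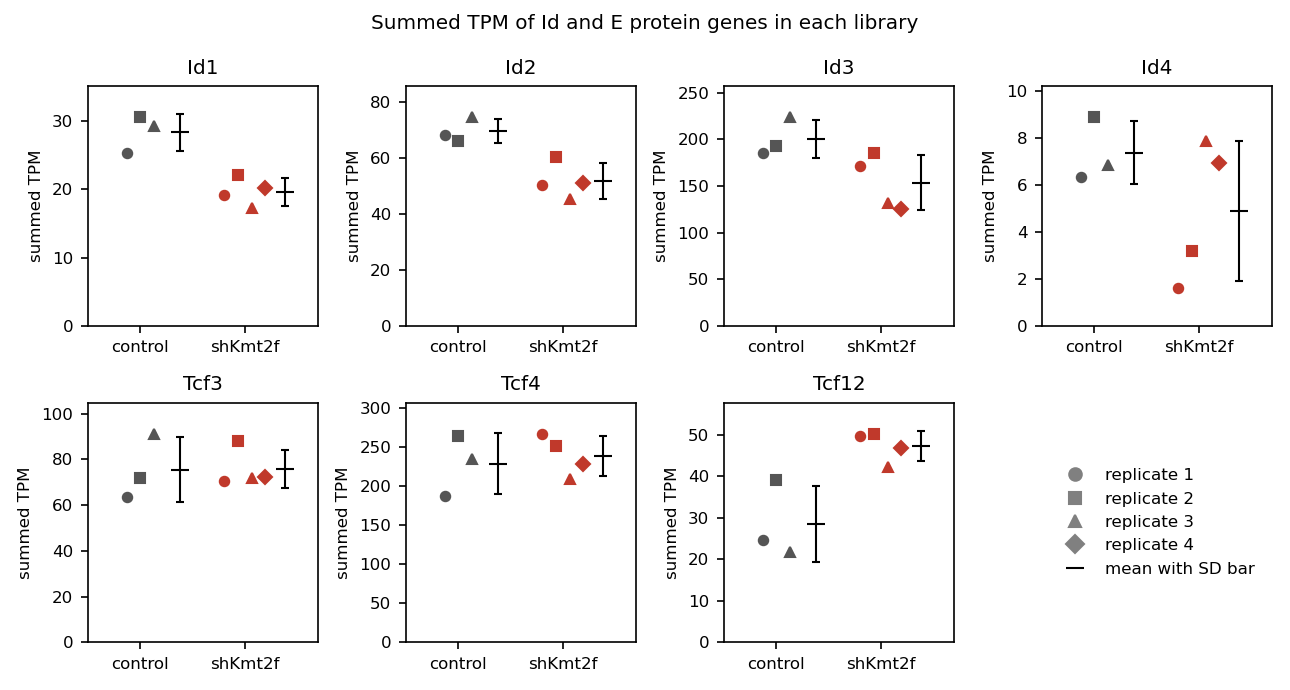
Summed TPM (vertical axes, from 0) of each Id and E protein gene in the 3 control (grey) and 4 shKmt2f (red) libraries; symbols mark replicate numbers and black bars the mean with its SD. The shKmt2f libraries lie below all controls for Id1 and Id2 and above all controls for Tcf12.

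Id1 encodes an inhibitor that is a classical BMP target. It lies at chr2:152736251-152737410 on the plus strand. Its level was 25.2, 30.5 and 29.2 TPM in the control libraries and 19.2, 22.1, 17.2 and 20.2 TPM in the shKmt2f libraries. Every shKmt2f library was below every control library. The means were 28.3 ± 2.75 TPM (SD, n = 3) and 19.6 ± 2.03 TPM (SD, n = 4), or 69.4% of control. With limma, the log2 fold change of -0.51 had an SE of 0.13 and an adjusted p of 0.0407, and the exact permutation test gave p = 0.0286. Leaving out any of the 7 libraries kept the direction and ended the call, with adjusted p between 0.0557 and 0.105. With each library corrected for GC content by loess, the fold change was -0.29 (adjusted p = 0.201).

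Id2, an inhibitor that also binds the retinoblastoma protein, lies at chr12:25093799-25097140 on the minus strand. It stood at 68.4, 66.2 and 74.6 TPM in control and at 50.5, 60.5, 45.3 and 51.0 TPM in shKmt2f libraries. The groups did not overlap, and shKmt2f replicate 2 came nearest to the controls. The means were 69.7 ± 4.33 TPM (SD, n = 3) and 51.8 ± 6.31 TPM (SD, n = 4), or 74.3% of control. A log2 fold change of -0.43 with an SE of 0.12 passed narrowly in limma (adjusted p = 0.0497). The exact permutation test gave p = 0.0571. Without control replicate 2 the adjusted p was 0.0427, and without any other single library the call was lost, with adjusted p up to 0.126. Corrected for GC content, the fold change was -0.74 (adjusted p = 0.0288).

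Id3, most of whose TPM came from a short non-coding transcript described below, had the highest summed TPM of the Id genes in all 7 libraries. It lies at chr4:136143497-136145755 on the plus strand. Control libraries had 185.1, 193.1 and 223.7 TPM and shKmt2f libraries 171.6, 185.5, 131.5 and 125.3 TPM. Replicates 3 and 4 of shKmt2f were the lowest, and replicate 2 reached the range of the controls. The means were 200.6 ± 20.4 TPM (SD, n = 3) and 153.5 ± 29.6 TPM (SD, n = 4). Their log2 fold change, -0.40 with an SE of 0.16, did not pass (limma adjusted p = 0.120). The exact permutation test gave p = 0.143. Under median-ratio scaling of the libraries, which moved the median of all genes by -0.11, the fold change was -0.52 with an adjusted p of 0.0426, and after correction for GC content it was -0.23 (adjusted p = 0.323).

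Id4 was the least abundant and the most variable of the family. It is a gene with 1 listed transcript, of 3849 bases, at chr13:48261228-48266026 on the plus strand. Its level was 6.34, 8.87 and 6.86 TPM in control and 1.61, 3.20, 7.85 and 6.93 TPM in shKmt2f libraries. Replicates 1 and 2 of shKmt2f were below all controls, whereas replicates 3 and 4 lay within the control range. Id4 did not pass in limma, with a log2 fold change of -0.65, an SE of 0.40 and an adjusted p of 0.298. Other genes parted the libraries of both groups. Atoh7, a proneural factor of ganglion cell precursors, had 99.0, 101 and 312 TPM in control and 20.4, 37.3, 429 and 428 TPM in shKmt2f libraries, and Smad4, the Smad shared by BMP and TGF-beta signalling, had 23.1, 33.6 and 112 TPM and 12.3, 15.1, 117 and 143 TPM. Both were high in control replicate 3 and in shKmt2f replicates 3 and 4. Id4 was low in shKmt2f replicates 1 and 2 only and did not part the controls in this way. Without shKmt2f replicate 1 its fold change was -0.32 (adjusted p = 0.541). After GC correction the Id4 fold change was -0.99 (adjusted p = 0.133). Id4 shares 82 exon bases with A330033J07Rik and 171 with Gm49291, both on the opposite strand, and whether the authors' quantification used strand is not given in the sources used here.

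Within the Id family the mean make-up was similar in both groups. Id3 held 65.5% ± 1.24 (SD, n = 3) of the summed Id TPM in control and 66.4% ± 3.94 (SD, n = 4) in shKmt2f libraries. Id2 held 22.8% and 22.7%, Id1 9.27% and 8.61%, and Id4 2.42% and 2.28%. Single shKmt2f libraries differed in the Id4 share, at 0.662% and 1.18% in replicates 1 and 2 and 3.89% and 3.41% in replicates 3 and 4. All lay outside the control range of 2.05% to 2.97%. By summed TPM, which is per length, the order Id3, Id2, Id1, Id4 held in each of the 7 libraries, and the ranges of neighbours did not touch within either group. On protein-coding transcripts alone the first 2 are closer to each other. Id3-201 and Id2 were at 68.9 and 68.4 TPM in control replicate 1. In shKmt2f replicate 4 the order turned, with 49.7 TPM for Id3-201 and 51.0 TPM for Id2. In all other libraries Id3-201 was the higher, for example at 71.2 TPM against 50.5 TPM for Id2 in shKmt2f replicate 1.

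Tcf12 (HEB), an E protein expressed widely in neural precursors, was the E protein that rose. It lies at chr9:71842688-72111871 on the minus strand. Control libraries had 24.7, 39.0 and 21.7 TPM and shKmt2f libraries 49.7, 50.2, 42.3 and 46.7 TPM. All 4 shKmt2f libraries were above the controls, of which replicate 2 was the highest and set most of the control spread. The means were 28.5 ± 9.20 TPM (SD, n = 3) and 47.2 ± 3.62 TPM (SD, n = 4), or 165.9% of control. With limma, the log2 fold change of 0.75 had an SE of 0.19 and an adjusted p of 0.0378, and the exact permutation test gave p = 0.0286. Without control replicate 2 the fold change was 0.99 with an adjusted p of 0.00165, and without any other single library the call was lost, with adjusted p up to 0.121. Summed over protein-coding transcripts only, Tcf12 had a fold change of 1.20 (adjusted p = 0.0188).

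Tcf3 (E2A), the founding E protein, was level between the groups. It lies at chr10:80409514-80433647 on the minus strand. It stood at 63.6, 71.8 and 91.2 TPM in control and at 70.5, 88.2, 71.9 and 72.3 TPM in shKmt2f libraries. The shKmt2f values all fell within the range of the controls. In limma the log2 fold change was 0.01, with an SE of 0.15 and an adjusted p of 0.963, and it was -0.11 under median-ratio scaling.

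Tcf4 (E2-2), whose human counterpart is mutated in Pitt-Hopkins syndrome, was the most abundant of the 3 E proteins in every library. It lies at chr18:69343356-69689079 on the plus strand. Control libraries had 187.5, 265.3 and 235.2 TPM and shKmt2f libraries 267.6, 252.0, 209.8 and 228.7 TPM. The groups overlapped almost fully. In limma the log2 fold change was 0.07, with an SE of 0.14 and an adjusted p of 0.772, and it was -0.05 under median-ratio scaling. Tcf4 held 68.7% ± 1.61 (SD, n = 3) of the summed E protein TPM in control and 66.0% ± 2.06 (SD, n = 4) in shKmt2f libraries. The share of Tcf12 was 8.52% ± 2.10 (SD, n = 3) and 13.04% ± 0.284 (SD, n = 4), and that of Tcf3 22.8% and 20.9%.

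**Figure D2:**
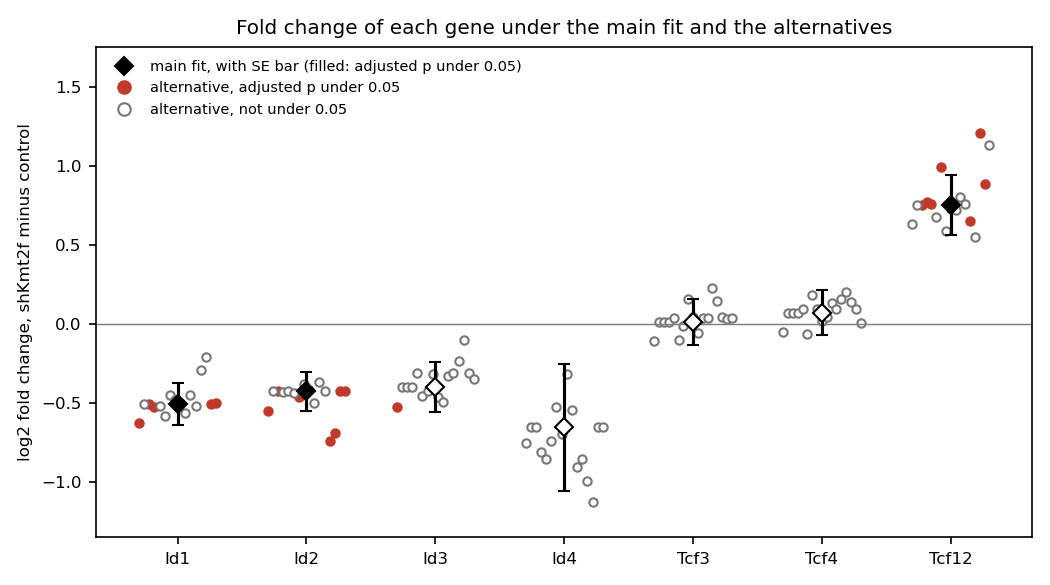
Log2 fold change of each gene (vertical axis, shKmt2f minus control) under the limma fit given in the text (diamonds, SE bars) and under each alternative, single libraries left out included (circles, red where the adjusted p was under 0.05). The 4 Id genes lie below 0 and Tcf12 above 0 under every alternative plotted, whereas Tcf3 and Tcf4 lie on both sides of 0.

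Set against each other, the 4 Id genes summed to 306.0 ± 25.4 TPM (SD, n = 3) in control and 229.8 ± 33.5 TPM (SD, n = 4) in shKmt2f libraries, and the 3 E protein genes to 333.4 ± 51.7 and 362.5 ± 32.2 TPM. The ratio of Id to E protein TPM was 1.03, 0.794 and 0.960 in the control libraries and 0.626, 0.695, 0.623 and 0.585 in the shKmt2f libraries. The lowest control lay above the highest shKmt2f library. The mean ratio was 0.929 ± 0.123 (SD, n = 3) and 0.632 ± 0.0457 (SD, n = 4). With E protein transcripts restricted to those that hold a bHLH exon, chosen once the data had been seen, the ratio was 2.09 and 1.44. These ratios are descriptions and were given no test. They compare RNA, and protein was not measured.

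**Figure D3:**
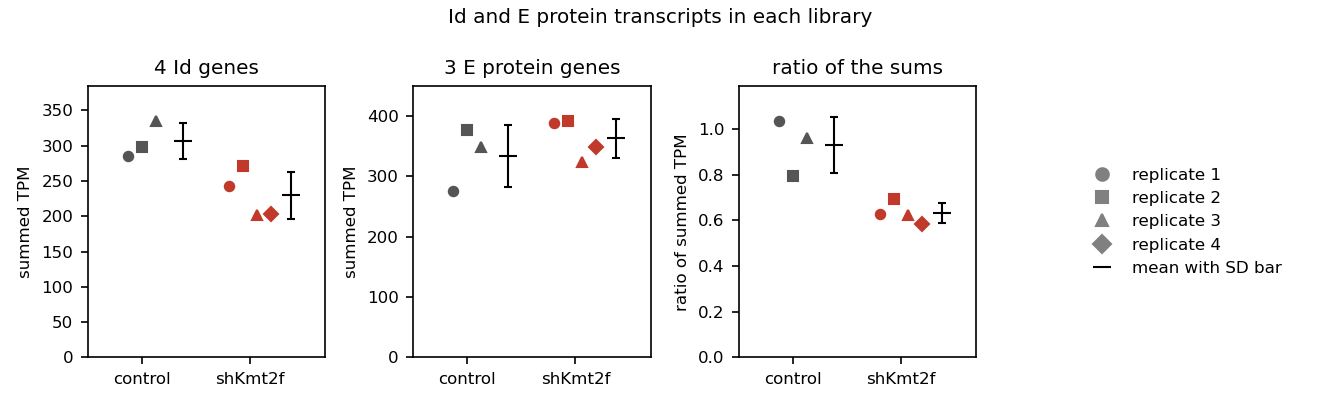
Summed TPM of the 4 Id genes, summed TPM of the 3 E protein genes and the ratio of these sums (vertical axes, from 0) in the 3 control and 4 shKmt2f libraries, with the mean and SD. Control libraries range from 0.794 to 1.03 in this ratio and shKmt2f libraries from 0.585 to 0.695.

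Single transcripts of Id1 and Id2 had fold changes close to those of their genes, but fewer passed among the larger number tested. Of the 61 listed, 45 had a mean of at least 1 TPM in a group and 43 of these were tested; 1 was called, against 2.24% of the 37024 transcripts tested. For 10 of the 43, ranges did not overlap (5 lower, 5 higher), against 21.6% of all transcripts tested. The main coding transcripts of Id1 and Id2 carried nearly all of their genes' TPM. The level of Id1-201 was 27.9 ± 2.64 TPM for control and 19.3 ± 2.04 TPM for shKmt2f (log2 fold change -0.51, limma adjusted p = 0.0721). That of Id2-201 was 65.6 ± 4.06 and 49.0 ± 6.16 TPM (log2 fold change -0.42, limma adjusted p = 0.0918), and the minor Id2-203 at 4.12 ± 1.27 and 2.80 ± 0.421 TPM. In the authors' deposited table, Id1-201 has a q of 0.00253 and Id2-201 a q of 0.00277, with effects of -0.45 and -0.38 on what the values show to be a natural log scale.

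Most of the summed Id3 TPM came from Id3-202, a transcript of 277 bases annotated as processed, meaning without an open reading frame. It had 120.4 ± 11.5 TPM (SD, n = 3) in control and 88.2 ± 16.8 TPM (SD, n = 4) in shKmt2f libraries (limma adjusted p = 0.132). The coding Id3-201, of 1278 bases, had 76.2 ± 7.96 and 61.8 ± 11.8 TPM (limma adjusted p = 0.289), and Id3-203, a retained-intron form, 3.98 ± 1.25 and 3.41 ± 1.23 TPM. The authors' deposited q is 0.0536 for Id3-201 and 0.126 for Id3-202. The share of Id3-202 in the gene was 60.0% in control and 57.5% in shKmt2f libraries, with the smallest exact permutation p of 0.0286 and 0.378 after adjustment over all transcript shares. Across all genes 7.56% of 34541 shares reached that smallest p. Among these 7 genes it was 5 of 44 shares, and none passed after adjustment.

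The summed transcripts of Tcf12 that contain the bHLH exon (chr9:71856305-71856537) were higher in shKmt2f libraries, as were those that lack it. The 5 with the exon summed to 7.23, 16.4 and 4.35 TPM in control and to 20.3, 20.04, 18.5 and 17.4 TPM in shKmt2f libraries. Control replicate 2 was again the highest control, and it stayed below all shKmt2f libraries. The means were 9.32 ± 6.29 TPM (SD, n = 3) and 19.1 ± 1.35 TPM (SD, n = 4), or 204.5% of control (exact permutation test, p = 0.0286). In limma this sum, chosen after seeing the data, did not pass (adjusted p = 0.0573). Without the 2 transcripts of the internal first exon described below, the ranges overlapped. That sum was 4.43, 14.5 and 2.49 TPM in control and 14.6, 14.3, 15.3 and 13.3 TPM in shKmt2f libraries (exact permutation test, p = 0.0857). The 9 transcripts without the exon had 19.2 ± 2.96 and 28.2 ± 2.94 TPM (exact permutation test, p = 0.0286). The share with the exon was 30.4% ± 11.1 (SD, n = 3) and 40.4% ± 2.69 (SD, n = 4), which differed by less than the control spread (exact permutation test, p = 0.171). Not all of the sum with the exon is annotated as coding. It includes Tcf12-220, annotated for nonsense-mediated decay, at 5.19 ± 4.19 and 7.90 ± 0.597 TPM. It also includes Tcf12-217, a retained-intron form, at 1.05 ± 0.249 and 1.43 ± 0.371 TPM.

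A pair of coding Tcf12 transcripts stood out within that sum. Tcf12-221, a coding form of 3986 bases, was listed at 0 in replicates 1 and 3 of the control group, stood at 3.61 TPM in replicate 2, and had 4.81, 6.38, 6.54 and 4.53 TPM in shKmt2f libraries (limma adjusted p = 0.0778). Tcf12-207 starts at an internal first exon within the gene, at chr9:71895930-71896396, and corresponds to the short form known as HEBAlt. It had 2.03, 0.713 and 0.668 TPM in control and 4.01, 4.14, 2.31 and 2.54 TPM in shKmt2f libraries (limma adjusted p = 0.0836). Both transcript series were higher in every shKmt2f library than in any control. The authors' deposited q is 0.117 for Tcf12-221 and 0.605 for Tcf12-207. The 2 transcripts that use the internal first exon summed to 2.19 ± 0.525 and 4.68 ± 1.26 TPM, with an exact permutation p of 0.0571. The other abundant Tcf12 transcripts, Tcf12-220, Tcf12-214, Tcf12-211, Tcf12-210 and Tcf12-212, had fold changes from 0.25 to 0.78 with ranges that overlapped. Of these, Tcf12-220, Tcf12-214 and Tcf12-211 are annotated for nonsense-mediated decay, not as coding. Tcf12-219 and Tcf12-217, both retained-intron forms, were at 1.30 and 1.05 TPM in control and 1.89 and 1.43 TPM in shKmt2f libraries.

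The E12 and E47 forms of Tcf3, whose exons are shown above, were both level. Transcripts with the E12 exon summed to 40.7 ± 6.50 TPM (SD, n = 3) in control and 42.3 ± 3.07 TPM (SD, n = 4) in shKmt2f libraries, and those with the E47 exon to 32.1 ± 6.20 and 31.9 ± 4.86 TPM. E12 made up 58.2%, 54.2% and 55.5% of both in control and 60.1%, 54.7%, 57.4% and 56.3% in shKmt2f libraries. The E12 sum was the larger in all 7 libraries, and the groups overlapped (exact permutation test, p = 0.571). It includes Tcf3-212, annotated as processed and not as coding, at 11.7 ± 2.92 TPM (SD, n = 3) in control and 11.7 ± 2.87 TPM (SD, n = 4) in shKmt2f libraries. Without Tcf3-212, E12 stayed larger in replicate 1 of each group only, and E47 was larger in the other libraries. In shKmt2f replicate 2, Tcf3-203 and Tcf3-206, the coding E12 transcripts, had 17.5 and 13.8 TPM, against 38.8 TPM for E47. The 7 Tcf3 transcripts at 1 TPM or more, Tcf3-202, Tcf3-203, Tcf3-205, Tcf3-206, Tcf3-211, Tcf3-212 and Tcf3-214, all had overlapping ranges. In TPM the widest control spread was in Tcf3-205, at 16.4 ± 7.16 TPM (SD, n = 3). Tcf3-214 was also listed at 0 in replicates 1 and 3 of the control group, with 7.72 TPM in replicate 2 and 1.98 to 6.09 TPM in shKmt2f libraries.

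The level sum of Tcf4 hid unequal transcripts. Tcf4-259, a coding fragment of 482 bases, had 16.0, 17.3 and 17.1 TPM in control and 26.9, 23.5, 26.2 and 25.1 TPM in shKmt2f libraries. It was higher in all 4 shKmt2f libraries, and was the one transcript called (limma log2 fold change 0.57, SE 0.11, adjusted p = 0.0441). Its call was lost without any single library other than control replicate 2, with adjusted p up to 0.131, and also under median-ratio scaling (0.0717), without the filter (0.0633), with a pseudocount of 0.1 (0.0526) and with the replicate number as a block (0.154). The authors' deposited table gives Tcf4-259 a q of 0.280. Tcf4-236, a retained-intron transcript of 373 bases, went the other way, from 28.7 ± 4.64 to 20.5 ± 2.18 TPM with ranges that did not overlap (limma adjusted p = 0.1099). Tcf4-244, of 353 bases, stood at 0.558 and 1.41 TPM and Tcf4-223, of 782 bases, at 2.07 and 1.53 TPM, both without overlap. For Tcf4-223 the gap was narrow, between 2.02 TPM in control replicate 2 and 2.01 TPM in shKmt2f replicate 1 (exact permutation test, p = 0.171). The other 18 Tcf4 transcripts at 1 TPM or more had overlapping ranges. None of these 4 short models is longer than 782 bases, and they share sequence with longer transcripts of the gene.

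By TPM, which is per length, only a minor part of Tcf4 belonged to transcripts with the bHLH exon. They summed to 65.6 ± 11.6 TPM (SD, n = 3) in control and 65.4 ± 6.29 TPM (SD, n = 4) in shKmt2f libraries, or 28.6% ± 0.358 and 27.3% ± 0.712 of the gene. This small difference in share had the smallest exact permutation p of 0.0286, while the level itself did not differ beyond the spread (exact permutation test, p = 1). Most of the remainder lay in Tcf4-222 (49.3 ± 13.4 and 52.0 ± 8.12 TPM), Tcf4-212 (46.2 ± 5.41 and 51.2 ± 9.01 TPM), Tcf4-259 and Tcf4-236, all shorter than 782 bases. The bHLH-exon transcripts with the most TPM, Tcf4-253 and Tcf4-243, are of 1959 and 1941 bases. TPM thus weighs the short models more than their bases would, and the share by bases was not computed. By contrast transcripts with a bHLH exon made up 96.6% of Tcf3 TPM in control and 98.0% in shKmt2f libraries.

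**Figure D4:**
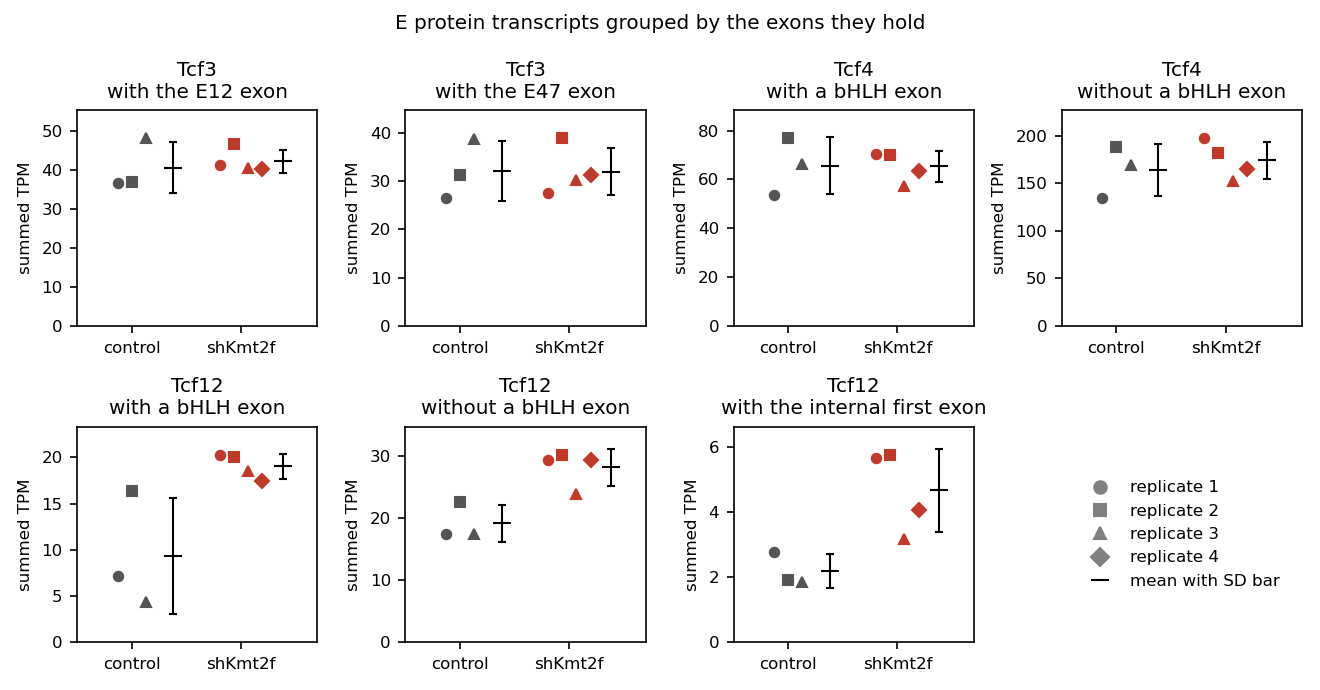
Summed TPM (vertical axes, from 0) of E protein transcripts grouped by the exon they hold, in the 3 control (grey) and 4 shKmt2f (red) libraries, with the mean and SD in black. Tcf12 transcripts lie higher in shKmt2f libraries with and without the bHLH exon, whereas the E12 and E47 forms of Tcf3 and both Tcf4 groups overlap.

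The partners and regulators of these genes were then examined; each count below stands against the 10.4% of all genes called higher and the 3.69% called lower. Among the class II bHLH factors that pair with E proteins, 15 of 28 were listed and 12 tested; 3 were higher and 0 lower, with a median log2 fold change of 0.17 against 0.09 over all genes. Neurod1, a factor of photoreceptor and amacrine differentiation, stood at 165 ± 64.5 TPM (SD, n = 3) in control and 434 ± 65.5 TPM (SD, n = 4) in shKmt2f libraries (log2 fold change 1.45, limma adjusted p = 0.0129). Neurod4 stood at 231 ± 95.2 and 685 ± 94.5 TPM (log2 fold change 1.63, limma adjusted p = 0.0114). Nhlh2, a neuronal bHLH factor, stood at 22.01 ± 11.03 and 57.6 ± 1.46 TPM (log2 fold change 1.45, limma adjusted p = 0.0164). In each of the 3, control replicate 2 was the highest control, as it was for Tcf12. The other 9 tested did not pass, among them the proneural Neurog2, at 67.0 ± 4.10 and 53.7 ± 3.72 TPM.

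The Hes and Hey group holds bHLH factors, several but not all of which act downstream of Notch and oppose proneural genes. Of this group 10 of 12 were listed and 8 tested, with 0 higher, 2 lower and a median of -0.28. Of all genes, 3.69% were called lower. The count of lower genes was 4 under median-ratio scaling and 1 under GC correction, where 826 of 12423 and 322 of 12456 genes tested were called lower. Hes5, a Notch target of progenitors, was lower at 222 ± 13.5 TPM than in control at 364 ± 28.0 TPM (limma log2 fold change -0.71, adjusted p = 0.00988). Hes6, which counteracts Hes1, was lower at 861 ± 48.8 TPM than in control at 1227 ± 143 TPM (limma log2 fold change -0.51, adjusted p = 0.0242). Hes1 itself was at 39.0 ± 4.47 and 42.0 ± 5.14 TPM and did not pass.

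In the BMP pathway, which induces Id genes, 24 of 30 were listed and 16 tested; 1 was higher and 0 lower, a share below the 10.4% of all genes called higher, with a median of 0.11. The gene was Acvr2a, a type II receptor, at 3.16, 5.14 and 2.44 TPM in control and 14.3, 11.9, 8.97 and 10.5 TPM in shKmt2f libraries (log2 fold change 1.46, limma adjusted p = 0.0129). The Smad genes that carry the signal did not pass: Smad1 was at 31.5 ± 3.24 and 37.4 ± 3.56 TPM and Smad5 at 10.1 ± 3.48 and 15.2 ± 4.496 TPM, and Smad4, whose values are given above beside Id4, had a log2 fold change of -0.06 (limma adjusted p = 0.979). Among 6 genes of Id protein turnover, all tested, 1 was lower and 0 higher, with a median of -0.04. It was Cdc20, which with the anaphase-promoting complex marks proteins for degradation and which is also among the mitosis genes; its level was 110 ± 15.6 TPM, against 291 ± 36.1 TPM in control (limma log2 fold change -1.40, adjusted p = 0.00322). Usp1, the deubiquitinase that stabilises Id proteins, was at 38.4 ± 17.1 and 53.2 ± 8.27 TPM and did not pass.

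Of the CDK inhibitors, some of which E proteins are known to activate, 6 of 7 were listed and 5 tested, with 0 higher, 1 lower and a median of -0.22, again beside 3.69% of all genes called lower. Cdkn2c was lower, with 6.68 ± 1.30 TPM against 13.7 ± 1.14 TPM in control (limma log2 fold change -0.95, adjusted p = 0.0160), while Cdkn1a, at 9.89 ± 1.10 and 10.8 ± 0.381 TPM, did not pass. Of 14 E protein cofactors, 12 were tested and 0 passed in limma in either direction, with a median of 0.27. At an unadjusted p under 0.05 in limma, 5 were higher and 0 lower. Of all 12456 genes tested, 4026 were under that threshold in either direction. By mean level the first cofactors were Cbfa2t2, a corepressor, at 60.9 ± 12.4 and 81.9 ± 9.59 TPM, and Ldb1, an adaptor, at 66.1 ± 20.01 and 69.8 ± 4.94 TPM. The HMG-box factors of Wnt signalling share the Tcf name only. Of these, 3 of 4 were tested and 0 passed in limma, with 0 at an unadjusted p under 0.05 and Tcf7l2 at 11.3 ± 2.38 and 12.2 ± 0.710 TPM and Tcf7l1 at 5.94 ± 0.862 and 5.34 ± 0.336 TPM. Leaving out single libraries gave 2 to 4 higher class II factors, 1 or 2 lower Hes and Hey genes, 0 or 1 lower CDK inhibitors and 1 or 2 higher BMP pathway genes; the CDK inhibitor call was lost without replicate 1 or 3 of control or replicate 1 of shKmt2f. Without control replicate 2, 3 of the cofactors were called higher, beside 2432 of all 12374 genes tested in that fit. The fits without a single library called 283 to 3004 genes in either direction.

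**Figure D5:**
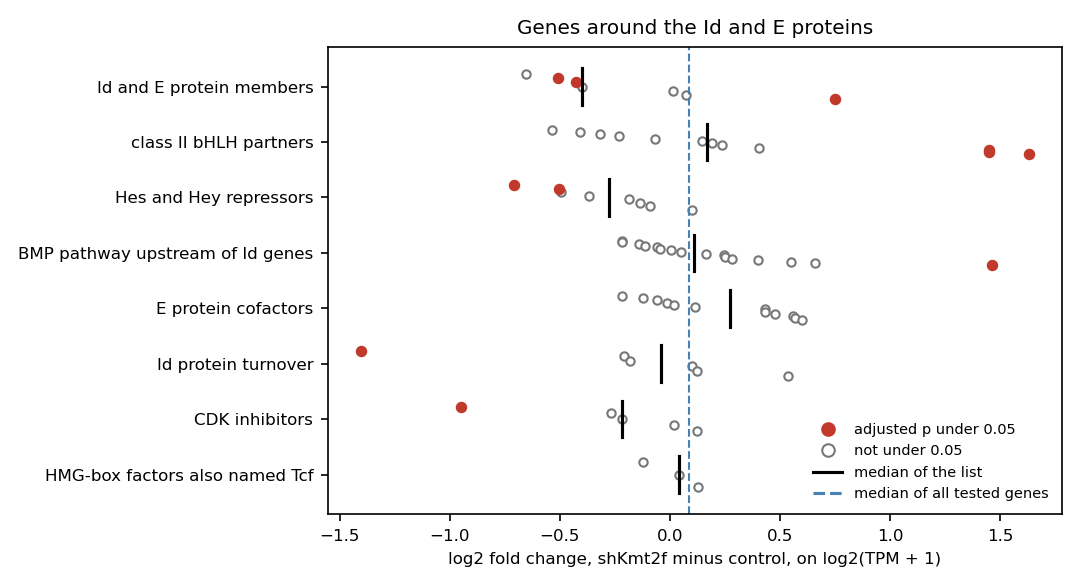
Log2 fold change (horizontal axis, shKmt2f minus control on log2(TPM + 1)) of each tested gene of the lists around the Id and E proteins; filled red points passed the limma test, black bars are list medians and the dashed line is the median of all genes. The calls are Neurod1, Neurod4, Nhlh2 and Acvr2a on the right and Hes5, Hes6, Cdc20 and Cdkn2c on the left, beside Id1, Id2 and Tcf12.

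Bulk libraries do not separate fewer cells of a type from less RNA per cell. The marker sums given above moved with these genes: progenitor and mitosis sums were lower in every shKmt2f library than in any control, as were Id1 and Id2, and photoreceptor and ganglion sums were higher, as was Tcf12. For progenitor and photoreceptor markers this was true of the sums and of 3 called genes each, not of every marker. Other sums did not all move. Neurogenic progenitor markers (1660 to 2261 and 1352 to 1855 TPM) overlapped between control and shKmt2f libraries. So did amacrine (389 to 461 and 429 to 482 TPM) and Muller glia markers (1192 to 1513 and 1343 to 1583 TPM). Horizontal cell markers were higher (11.9 to 19.3 and 21.2 to 28.9 TPM). The part of these cell types in the results was not tested. Id1 and Id3 are also known from blood vessels. Of 10 endothelial markers 5 were listed; they summed to 112 to 147 TPM in control and 94.6 to 139 TPM in shKmt2f libraries, mostly Kdr, Egfl7 and Cldn5, the 3 that could be tested. Of these, Egfl7 was called lower, at 49.1 and 25.7 TPM (limma log2 fold change -0.91, adjusted p = 0.0132), in the direction of Id1 and Id2, while Kdr, with 61.0 and 66.6 TPM, and Cldn5, with 23.9 and 20.6 TPM, were not called. The defining markers Pecam1 and Tie1 were at 0.160 TPM or less in every library. Astrocyte markers (3 of 4 listed), in a cell type with high Id levels, summed to 1.81 TPM or less in every library.

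The genes whose level followed each of the 7 most closely over the 7 libraries were found among 8843 protein-coding genes with a mean of at least 5 TPM, as the smallest root mean square difference between centred log2(TPM + 1) profiles. For Id1 these were Uba2, at 0.05, and Nde1, at 0.06, where the median gene was at 0.37. For Id2 they were Cox18 and Thoc6, both at 0.05, and for Id3 Sh3rf3, at 0.06, and Aif1l, at 0.08. Tcf12 was followed by Lin7c, at 0.03, and Hccs, at 0.05, with a median gene at 0.45. Lin7c had 23.5, 37.4 and 21.2 TPM in control and 50.5, 48.2, 40.6 and 45.3 TPM in shKmt2f libraries, with the same high control replicate 2. For Id4, whose median gene was at 0.71, the nearest were the eye-field factor Six3, at 0.16, and Glcci1, at 0.18, and both shared its low values in shKmt2f replicates 1 and 2. Pacsin2 was nearest to Tcf3, at 0.04, and Lman1 and Dab1 were nearest to Tcf4, at 0.04 and 0.05.

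Promoter windows from RefSeq (GRCm38.p6, 250 bases before to 50 after a start) were held for Id2, Id3, Id4, Tcf3 and Tcf12. They were searched on both strands for the E-box CANNTG, for CAGCTG (an E-box favoured by E protein pairs, and thus also a CANNTG match) and for GGCGCC (an element of BMP Smads). These were present in 72.3%, 16.3% and 11.9% of 32851 windows of that length. Annotated exons of the same gene cover 211 of the 300 bases of the Id2 window and all 300 of the Id3 window. They cover 102, 51 and 300 bases of the Tcf12 windows, 62 of the Tcf3 window and 0 of the Id4 window. The Id2 window lies inside the annotated span of that gene, downstream of its outermost 5′ end. The Id2 window had 1 CAGCTG, which is its one CANNTG match, and 1 GGCGCC. Both lie in the stretch shown here because it holds the one pair of an E-box and a Smad element among the Id windows: chr12:25096254-25096342, minus strand, 89 bases that no annotated Id2 exon covers, with both motifs in capitals.
Id2: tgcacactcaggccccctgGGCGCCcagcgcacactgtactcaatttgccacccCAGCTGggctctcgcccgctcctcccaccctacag
The Id3 window had none of the 3 motifs and the Id4 window had 1 GGCGCC and no CANNTG. The Tcf3 window had 1 CANNTG. Tcf12 has 3 windows, with 1, 2 and 1 CANNTG matches; the first of these matches is a CAGCTG. A match describes letters in a window and is neither a bound site nor a cause.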

How the data were processed

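RNA was sequenced from sorted retinal cells (3 control, 4 shKmt2f libraries). Quantification used Salmon 0.11.3 and sleuth 0.30.0 on GRCm38.p6, per the submitters' processing notes. The authors deposited, per library, TPM for each transcript, beside p-value, q-value and natural log effect columns that were the same in all 7 tables, per the file headers and values. Rows without TPM (71 of 55475) were dropped. Depth is unknown in TPM, so no counting interval is given.

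TPM was summed per gene and tested with limma 3.58.1 (R 4.3.3) on log2(TPM + 1), with trend and robust settings, group as the only term and the Benjamini-Hochberg adjustment; single transcripts likewise. The fit was tested on simulated data. Exact permutation tests (two-sided) used log2(TPM + 1) for genes, log2(TPM + 0.1) for transcripts and percent for shares. Share p-values were adjusted over all transcripts rather than over these genes. Same-numbered libraries deviated together only weakly (r of 0.06 to 0.08), and an unlike-numbered pair reached 0.098, so replicate numbers were not used as pairs. Whether same-numbered libraries share a batch was not tested. Exons and coding sequence are from GENCODE and promoters from RefSeq, both on GRCm38; of the promoter windows only a stretch of Id2 outside its exons is shown. The genes, lists and markers, and the rule for named genes (all 7 genes, their transcripts at 1 TPM or more, up to 4 called genes per list or otherwise up to 2 of the highest level, and 2 nearest profiles) were chosen with earlier results of these data known. A gene that this rule takes is not reported here. Other list members and the markers named singly were named after their values were seen. Alternatives are in the closing section.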

Additional observations from a re-analysis of the deposited data

Results flagged for a closer look

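Of 17 sets of 4 shKmt2f values checked for a library far from the other 3, chance flags about 1 in 20. In shKmt2f replicate 2, Tcf3 was highest, at 88.2 TPM, as were its transcripts with a bHLH exon, at 85.6 TPM, and those with the E12 exon, at 46.8 TPM; the 3 values share transcripts. In shKmt2f replicate 3, the Tcf12 transcripts without a bHLH exon were lowest, at 23.8 TPM, which is still above all controls.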

How the results depend on the processing

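The signs of the Id1, Id2, Id3, Id4 and Tcf12 fold changes held under every alternative run; their calls did not. Leaving out each library in turn gave fold changes from -0.59 to -0.45 for Id1, -0.50 to -0.37 for Id2, -0.50 to -0.31 for Id3, -0.90 to -0.32 for Id4, 0.59 to 0.99 for Tcf12, -0.10 to 0.16 for Tcf3 and -0.067 to 0.18 for Tcf4, and 283 to 3004 genes called (1755 with all libraries; 63 to 4393 transcripts against 828). Without the filter on low values, the adjusted p was 0.0520 for Id1 (-0.51), 0.0644 for Id2 (-0.43) and 0.0525 for Tcf12 (0.75). With a pseudocount of 0.1, Id2 (-0.43) had 0.0514. Under median-ratio scaling, Id3 was called at -0.52, Tcf12 had 0.63 (adjusted p = 0.0504), Tcf3 -0.11 and Tcf4 -0.054, and 57.6% of called genes were higher, against 73.8%. GC correction gave Id1 -0.29 and 1063 called genes; with length as well, Id1 had -0.21, Tcf12 0.55 (adjusted p = 0.0593) and 1150 genes were called. With bHLH-exon transcripts only, an alternative chosen after seeing the data, Tcf12 had 1.13 (adjusted p = 0.0573) and the Id to E protein ratio differed by 0.646. For each of these shifts the cause was not tested. With the replicate number as a block, Id1 had -0.52 (limma adjusted p = 0.105) and Id2 -0.42 (adjusted p = 0.144). Under this block Tcf12 kept its call (adjusted p = 0.0324), with 1377 genes and 1 transcript called. Same-numbered libraries deviated together weakly, with r of 0.06 to 0.08, and whether they share a batch was not tested. TPM keeps no depth, so the precision of low values such as Id4 is unknown.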
